A study of Mus musculus with 7 samples.

Results

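The genes described here encode the machinery that copies DNA, together with genes switched on for entry into S phase. They are 41 genes chosen by name, and each matched exactly 1 of the 23358 gene entries in the authors' deposited table. All 41 had a test by the authors and stood above the minimum of 1 FPKM (fragments per kilobase of transcript, scaled to the fragments of the library, so that levels can be compared between genes), so no member was lost to a filter. The libraries came from brains of C57Bl6 mouse embryos at stage E14.5. There were 3 control libraries and 4 libraries from embryos labelled as lacking Tgfbr2, the type II receptor for transforming growth factor β, and the genotype of the controls is given no further. In both groups, cells labelled endothelial were sorted by the red fluorescence of TdTomato, made from the Ai14 allele after Cre recombination, with RNA taken from 2000 to 5000 cells. Neither the line that drives Cre nor the exons removed from Tgfbr2 are stated in the sources used here. Each gene has 1 FPKM value per group, made by the authors from that group's libraries, so no spread between libraries can be shown and the depth is unknown. A gene was called lower or higher where the authors' q-value was under 0.05, and "fell" and "rose" are used only of such genes. Nothing in the labels says whether libraries of the same genotype came from different embryos, and the spread behind the q-values may therefore be technical.

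DNA replication begins in G1, when the origin recognition complex with CDC6 and CDT1 loads the ring-shaped MCM helicase onto origins, a step called licensing. At the start of S phase, cyclin E and its kinase and a set of firing factors add CDC45 and the GINS complex to that ring, the helicase opens the DNA, and primase and the polymerases copy it with the help of the sliding clamp PCNA. Many of these genes are targets of E2F transcription factors, so their transcripts are widely read as a sign of cycling cells, and in the embryonic brain endothelium, microglia, blood cells and neural progenitors all divide.

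Tgfbr2, the targeted gene, had 91.1 FPKM among controls and 65.4 FPKM among deficient libraries, which did not pass (q = 0.0953 in the authors' deposited table). The label was also set against marker genes of the cell types that such a sort could hold. Pecam1, an adhesion molecule of endothelial junctions, stood at 4.81 FPKM in the controls and 35.8 FPKM in the deficient group, against 1247 and 494 FPKM for the macrophage receptor Csf1r. Of 15 pan-endothelial markers 15 were higher, with a summed level of 35.1 FPKM in the controls and 339 FPKM in the deficient group. Of 17 microglia and macrophage markers 15 were lower and 0 higher, with sums of 13489 FPKM in the control and 6453 FPKM in the deficient group. Of 11 fibroblast and mural markers 11 were higher (134 and 1112 FPKM in sum), and of 11 neural progenitor markers 10 were higher (208 and 361 FPKM). Of 8 tested erythroid markers 6 were higher and 1 lower (416 and 2374 FPKM over the 9 that matched an entry), and of 10 mast cell and megakaryocyte markers 9 were higher and 1 lower. The one that was lower, Pf4, which macrophages also make, holds most of that list's sum (1877 and 747 FPKM), and the other 9 summed to 10.1 and 459 FPKM. No matched marker was at 0 FPKM in either group. The part of this shift between cell types in the values below was not tested.

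Part of the replication genes fell moderately in the Tgfbr2-deficient group and none rose. Mcm5 and Mcm6, subunits of the replicative helicase, fell from 95.2 to 58.8 FPKM and from 162 to 107 FPKM, Cdt1, the licensing factor, from 40.3 to 23.8 FPKM, and Fen1, the flap nuclease of the lagging strand, from 86.7 to 52.7 FPKM. Of the 41 members 19 were lower, 0 were higher and 22 did not pass. Over all 13356 tested genes 14.7% were lower and 23.9% higher, and over the 9098 tested genes whose mean level lay between those of the lowest and the highest member, 3.9 and 134 FPKM, 17.9% were lower and 15.8% higher. The deficient level of the members was between 52.5% and 92.5% of the control level, with a median of 68.8%. All 41 had a log2 fold below 0, as did 54.9% of all tested genes and 66.4% of those in the members' range of levels. On the log2 scale of FPKM + 1, which is used for medians, the members' median was −0.50 against −0.08 for all tested genes and −0.20 for those in the same range of levels. Of 80 ribosomal protein genes, another abundant set of growing cells, 40 were lower and 0 higher. Their median was −0.54, and measured against it the members' median became 0.035, with 16 members below and 25 above. Of the 19 that fell 14 were below that median, and the 5 above it were Mcm4, Gins4, Pold1, Lig1 and Tyms. The members as a group thus stood lower relative to all tested genes and about level with ribosomal protein genes. In sorted bulk RNA, fewer cells of a dividing type and less of these transcripts per cell cannot be told apart.

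**Figure D1:**
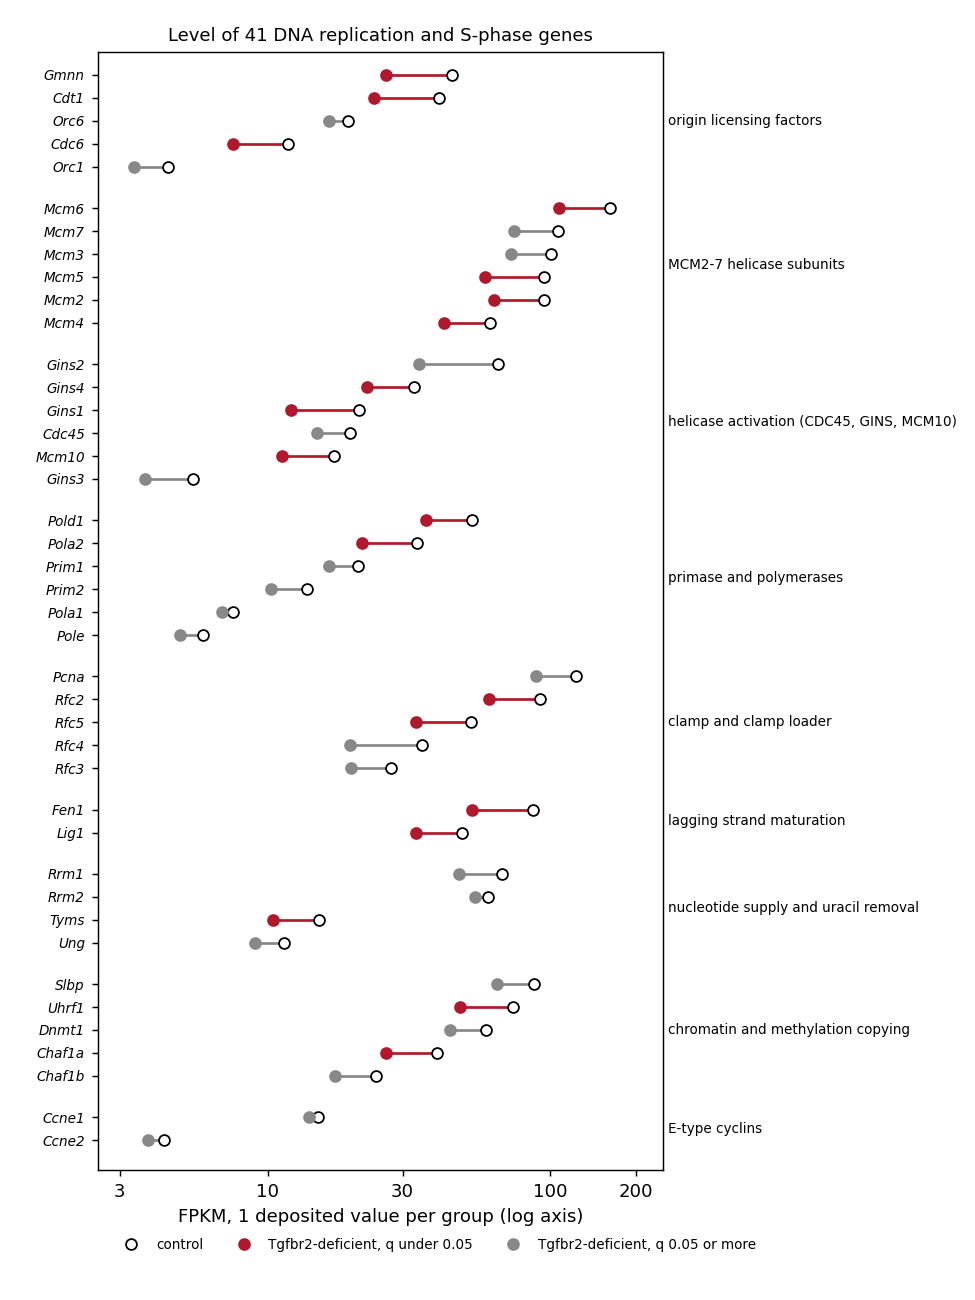
Level of each of the 41 members, in FPKM on a log axis, in the control group (open circles) and the Tgfbr2-deficient group (filled circles, red where the authors' q-value was under 0.05 and grey otherwise), grouped by role. Each circle is 1 value for the whole group, so there are no error bars, and in all 41 genes the deficient value is to the left of the control value.

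No member reached a log2 fold of 1 in size. Among all tested genes, 2.76% were lower with both q under 0.05 and a log2 fold of at least 1 in size. At the stricter q under 0.01, 5 members remained lower, namely Cdt1, Fen1, Gmnn, Pola2 and Mcm5, against 7.68% of all tested genes. The standard deviation of the log2 folds among the members was 0.19. The middle 50% of the members lay between −0.60 and −0.40, while that of tested genes in the members' range of levels ran from −0.45 to 0.18 and that of all tested genes from −0.39 to 0.58.

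**Figure D2:**
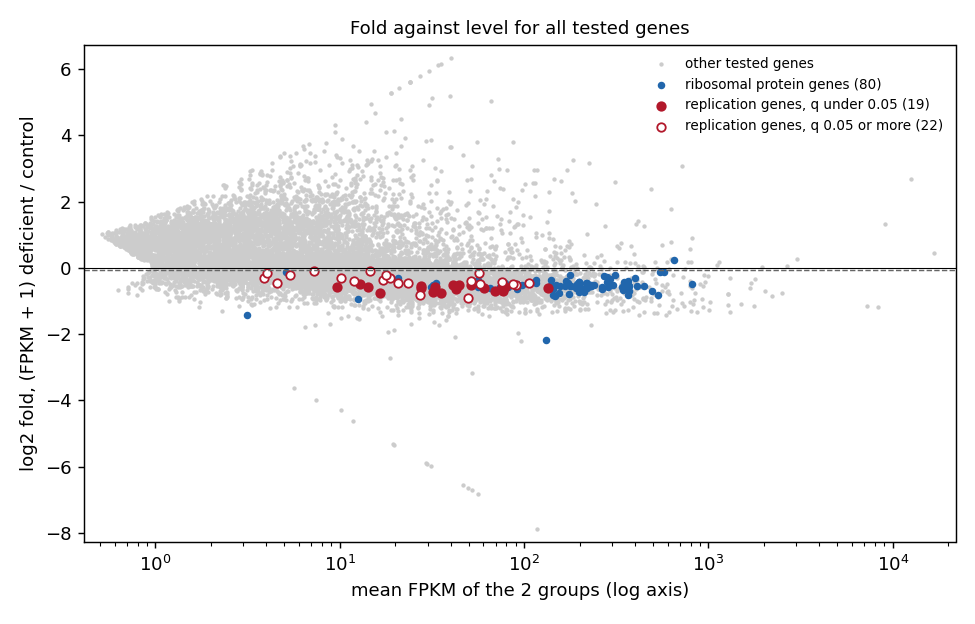
Log2 fold of FPKM + 1 (deficient over control) against the mean FPKM of the groups on a log axis, 1 point per tested gene (13356 genes, grey), with the members in red (filled where q was under 0.05) and 80 ribosomal protein genes in blue. The dashed line is the median of all tested genes, −0.08. The members lie in a band below that line and beside the ribosomal protein genes, while the grey cloud of genes under 10 FPKM reaches mostly upwards.

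Bases before the start sites of 4 members are shown because many replication genes are known E2F targets. They set genes with the E2F letters beside ones without them. The sequences are from RefSeq on the GRCm38.p6 build, cut so that no annotated exon is included, and read 5′ to 3′ on the strand of the gene. Capitals mark a match to TTTCCCGC, TTTGGCGC, TTTCGCGC or TTTGCCGC on either strand, and matches can overlap. Mcm5 (chr8:75109259-75109467, plus strand) has 2 overlapping matches and Mcm6 (chr1:128359706-128359955, minus strand) has 3, of which 2 overlap. Mcm2 (chr6:88898781-88899030, minus strand) also fell and Ccne1 (chr7:38107535-38107740, minus strand) was nearest to no difference, and neither shows a match. The 4 do not stand for all members, since Orc1 and Pola1 had a match and did not pass.
Mcm5: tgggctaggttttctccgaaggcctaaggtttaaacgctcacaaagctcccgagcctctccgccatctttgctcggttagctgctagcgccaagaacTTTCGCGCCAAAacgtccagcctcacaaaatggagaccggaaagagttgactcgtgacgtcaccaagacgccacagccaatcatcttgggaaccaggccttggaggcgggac
Mcm6: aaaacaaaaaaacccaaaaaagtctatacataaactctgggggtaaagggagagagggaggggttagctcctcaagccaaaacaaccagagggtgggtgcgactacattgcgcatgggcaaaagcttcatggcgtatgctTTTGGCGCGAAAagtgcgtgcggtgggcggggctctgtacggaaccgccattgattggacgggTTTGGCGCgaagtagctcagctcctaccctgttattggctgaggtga
Mcm2: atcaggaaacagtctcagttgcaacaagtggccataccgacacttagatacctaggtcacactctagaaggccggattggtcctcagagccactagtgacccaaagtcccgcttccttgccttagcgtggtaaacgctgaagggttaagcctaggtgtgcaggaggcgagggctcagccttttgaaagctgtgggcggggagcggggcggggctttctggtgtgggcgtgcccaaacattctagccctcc
Ccne1: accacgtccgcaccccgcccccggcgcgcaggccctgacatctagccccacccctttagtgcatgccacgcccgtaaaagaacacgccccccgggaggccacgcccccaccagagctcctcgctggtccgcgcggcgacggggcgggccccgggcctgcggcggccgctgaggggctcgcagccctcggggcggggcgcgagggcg

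Of the 41 members 32 had a promoter entry, with 39 start sites in all, and the 250 bases before each start were searched. A gene counted as matched when any of its starts had a match, for the members and for all other genes alike. A match to the 4 E2F words was found in 10 of the 32 (31.3%), against 3.84% of the 9819 tested genes with an entry and 2.16% of all 27025 genes with one. The 10 were Mcm5, Mcm6, Mcm7, Cdc6, Orc1, Gins3, Rfc3, Pola1, Dnmt1 and Uhrf1, and the match stood at 1 of 3 starts in Dnmt1 and at 1 of 2 in Mcm7 and Uhrf1. Of the 14 searched members that fell 4 had a match (28.6%), and of the 18 that did not pass 6 had one (33.3%). The word CCAAT, on either strand, was in 20 of the 32 members (62.5%) and in 40.3% of the tested genes. It was in 6 of the 14 members that fell and in 14 of the 18 that did not pass. Among 17 genes of mitosis and G2/M with an entry, CCAAT was in 15 and an E2F word in 1. A match is a run of letters only, and the binding of a factor was not measured.

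The counts per role group, here and in the paragraphs that follow, stand beside 14.7% lower over all tested genes and 17.9% in the members' range of levels. The groups are small, and none was tested against those shares. Of the licensing genes, 3 of 5 fell. Cdt1, which brings the helicase to the origin, fell to 59.0% of its control level, and Gmnn, whose product geminin binds and blocks CDT1, fell from 44.9 to 26.1 FPKM, or 58.1%. Inhibitor and target were thus lower by like amounts, and the ratio of Cdt1 to Gmnn was 0.898 in the control and 0.912 in the deficient group. Cdc6, the ATPase that joins CDT1 at the origin, fell from 11.8 to 7.54 FPKM. Orc1, the largest subunit of the origin recognition complex, stood at 4.43 and 3.37 FPKM, and Orc6, its smallest, at 19.3 and 16.5 FPKM. Neither passed in the authors' deposited table (q = 0.283 for Orc1 and 0.484 for Orc6). Cdt1 lies on chromosome 8 from 122568015 to 122573130 in the mm10 build, on the plus strand (ENSMUSG00000006585.3). Gmnn lies on chromosome 13 from 24751845 to 24761937, on the minus strand (ENSMUSG00000006715.11).

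The MCM helicase is a ring of 6 different subunits, MCM2 to MCM7, and it stood among the most abundant of the members. Mcm6 was the highest of all 41 in both groups, with 162 FPKM in the control and 107 FPKM in the deficient group. Mcm5 fell to 61.8% of its control level, Mcm6 to 65.9%, Mcm2 from 95.0 to 63.4 FPKM and Mcm4 from 61.1 to 41.9 FPKM. Mcm7, at 106 and 74.3 FPKM, and Mcm3, at 101 and 72.3 FPKM, did not pass, with q = 0.0524 and 0.0700 in the authors' deposited table. All 6 subunits stood between 61.8% and 71.7% of the control level, so those that passed and those that did not differ little in size. The transcript ratio of the highest to the lowest subunit, Mcm6 to Mcm4, was 2.65 in the control and 2.55 in the deficient group. Ratios between the other subunits were not computed, and protein was not measured. Mcm7 hosts the microRNA genes Mir25, Mir93 and Mir106b in the annotation and overlaps Cops6. Where exons of overlapping genes coincide, reads cannot be separated by strand, because the kit does not mark strand. Overlap was taken from whole gene spans, and whether exons coincide was not examined. By span, 9 members have a deposited locus that overlaps another protein-coding gene. Of these 3 fell, namely Cdt1, Chaf1a and Lig1.

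Of the genes that turn the loaded ring into an active helicase, 3 of 6 fell. Gins1, a subunit of the GINS complex, fell from 21.1 to 12.1 FPKM, which at 57.2% of the control level was the largest fall among the 19. Gins4, another GINS subunit, fell from 32.9 to 22.4 FPKM and Mcm10, a firing factor that binds the active helicase, from 17.2 to 11.2 FPKM. Gins4 was the member nearest to the threshold on its inner side (q = 0.0439 in the authors' deposited table), and Mcm7 was the nearest outside it. Gins2 stood at 65.3 and 34.3 FPKM, the lowest share of control of any member at 52.5%, yet did not pass (q = 0.0996 in the authors' deposited table). Gins3, at 5.45 and 3.69 FPKM, and Cdc45, which completes the helicase, at 19.6 and 14.9 FPKM, did not pass either. The 4 GINS subunits, which form a complex with 1 copy of each, differed 11.99-fold between Gins2 and Gins3 in the control and 9.29-fold in the deficient group. This range was wider than that of the MCM ring, but the level of Gins2 is uncertain. Its deposited locus is 100210 bases long against 10672 bases for the gene, and it overlaps other genes.

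Of the primase and polymerase genes, 2 of 6 fell. Pola2, the accessory subunit of polymerase α, fell from 33.8 to 21.6 FPKM, and Pold1, the catalytic subunit of polymerase δ, which copies the lagging strand, from 52.8 to 36.4 FPKM. Pola1, the catalytic subunit that partners Pola2, stood at 7.53 and 6.92 FPKM, 91.8% of control. The subunits of that complex therefore stood at different shares of control, since Pola2 was at 63.9%, although the difference between them was not tested. Prim1 and Prim2, the primase subunits that make the RNA primer, stood at 20.9 and 16.5 FPKM and at 13.8 and 10.2 FPKM. Pole, the catalytic subunit of the leading-strand polymerase ε, stood at 5.90 and 4.88 FPKM. These 4 genes did not pass, with q from 0.163 for Prim2 to 0.695 for Pola1 in the authors' deposited table.

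Pcna, the sliding clamp that tethers polymerases to DNA, stood at 123 and 88.8 FPKM and did not pass (q = 0.0700 in the authors' deposited table). It was the second most abundant member in both groups. The genome also holds annotated pseudogenes named Pcna-ps1 and Pcna-ps2, and how reads were shared with such copies is not stated in the sources used here, so this value is uncertain. Of the subunits of the clamp loader, replication factor C, Rfc2 fell from 91.7 to 60.7 FPKM and Rfc5 from 52.3 to 33.3 FPKM. Rfc3 stood at 27.4 and 19.7 FPKM and Rfc4 at 35.0 and 19.6 FPKM, and neither passed. Rfc4 stood at 55.9% of control, below Rfc2 and Rfc5, which passed at 66.2% and 63.8%.

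Both genes that finish lagging-strand fragments fell. Fen1, which trims the flap left by strand displacement, fell to 60.8% of its control level with q = 0.00357 in the authors' deposited table. Lig1, the ligase that seals the nick, fell from 48.6 to 33.6 FPKM with q = 0.0399 in that authors' deposited table. FEN1 and LIG1 both bind PCNA, whose own gene did not pass.

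Of the genes for DNA precursors and uracil removal, 1 of 4 fell, beside 17.9% lower among tested genes in the members' range of levels. Tyms, thymidylate synthase, which makes the thymine nucleotide, fell from 15.2 to 10.5 FPKM, and a pseudogene copy, Tyms-ps, is annotated, so the value is uncertain. Rrm1, the large subunit of ribonucleotide reductase, stood at 67.1 and 47.6 FPKM, 70.9% of control. Rrm2, its small subunit, which is made in S phase, stood at 60.3 and 54.1 FPKM, 89.7% of control. Rrm2 was thus among the members nearest to no difference while being abundant, and neither subunit passed (q = 0.0644 for Rrm1 and 0.583 for Rrm2 in the authors' deposited table). Ung, which cuts uracil out of DNA, stood at 11.4 and 8.98 FPKM and did not pass.

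Among the genes that copy chromatin and DNA methylation behind the fork, 2 of 5 fell. Uhrf1, which reads half-methylated DNA and recruits the maintenance methyltransferase, fell from 73.9 to 48.0 FPKM. Dnmt1, that methyltransferase, stood at 58.9 and 44.3 FPKM, 75.1% of control, and did not pass. Chaf1a, the large subunit of chromatin assembly factor 1, which places new histones on the copied DNA, fell from 39.8 to 26.2 FPKM. Chaf1b, its partner, stood at 24.2 and 17.2 FPKM, and Slbp, which binds the stem-loop of histone messenger RNA, at 87.2 and 64.9 FPKM. Neither Chaf1b nor Slbp passed (q = 0.0771 and 0.09997 in the authors' deposited table).

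The E-type cyclins, which drive entry into S phase, were the role group with the least difference. Ccne1 stood at 15.1 and 14.0 FPKM, 92.5% of control and the highest share of any member, and Ccne2 at 4.29 and 3.77 FPKM. Neither passed, with q = 0.737 for Ccne1 and 0.836 for Ccne2 in the authors' deposited table. With 1 value per group the interval of these differences cannot be given, and a difference between the cyclins and the other members was not tested.

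Whether a member passed followed the size of its fold closely for most genes. The log2 fold divided by the test statistic, which grows with the spread the authors' test gave a gene, was between 0.377 and 0.412 for the middle 50% of the members, computed from the authors' deposited table. It exceeded 0.7 in 3 members, Gins2 with 0.755, Rfc4 with 0.740 and Ccne2 with 0.979. Gins2 and Rfc4 had the lowest shares of control of all 41 members and did not pass. The deposited locus of Gins2 runs on chromosome 8 from 120488866 to 120589075, a length of 100210 bases. The annotated gene covers 10672 bases, and another 5 annotated genes overlap the span. The locus of Ccne2 (chromosome 4, 11191354 to 11254259) also overlaps Ints8, and that of Rfc4 (chromosome 16, 23107479 to 23127730) overlaps Eif4a2 and 6 other annotated genes. The fourth such member, Lig1, has a locus reaching into Zswim9 and a ratio of 0.381, inside the usual band. The part of these neighbours in the levels and in the spread was not tested.

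**Figure D3:**
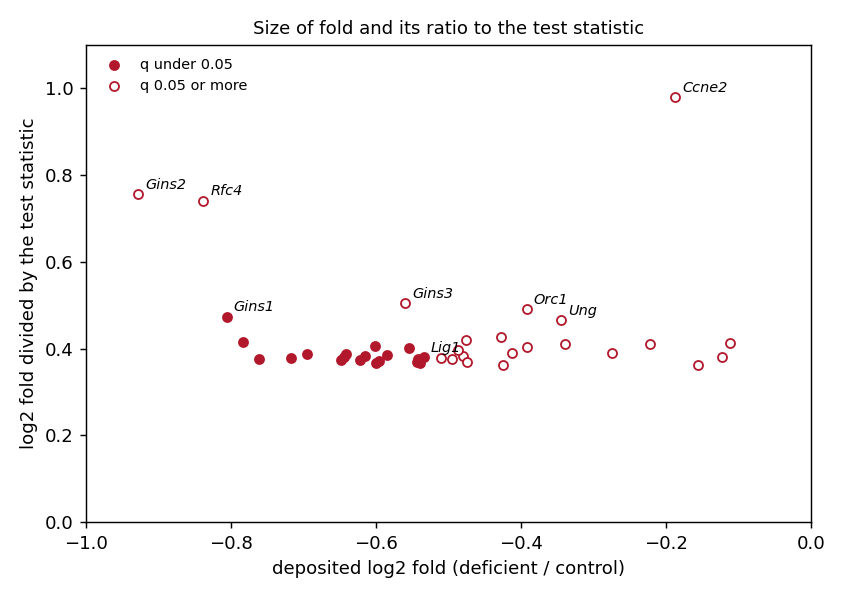
Deposited log2 fold (x axis) against that fold divided by the authors' test statistic (y axis, no unit), 1 point per member, filled where q was under 0.05. Most of the 41 points lie in a flat band near 0.39, in which the filled points lie furthest to the left, while Gins2, Rfc4 and Ccne2 stand above it.

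The order of the members by level was nearly the same in both groups. Across the 41 genes the Spearman correlation of the control and deficient levels was 0.988, a description over genes that share their libraries, and 9 of the 10 most abundant members were the same. More abundant members also had lower log2 folds, with a Spearman correlation of −0.48 between control level and log2 fold over the same 41 genes. A correlation below 0 can arise here by construction. The control level is the denominator of the fold, and the added 1 FPKM shrinks the folds of low genes. Of the 28 members at 20 FPKM or more in the control group 16 fell, and of the 13 below it 3 fell, namely Cdc6, Mcm10 and Tyms. The level of 20 FPKM was chosen after the values were seen, and the same split was not made over all tested genes.

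Further genes of the pathway were counted from 6 lists. Of 94 further replication and G1/S genes, all tested, 17 were lower and 2 higher, and 77 had a log2 fold below 0, with a median of −0.31, which becomes 0.23 against ribosomal protein genes. The share lower, 17 of 94, stood near the 17.9% of tested genes in the members' range of levels. The 2 of 94 that were higher stand beside 15.8% of those genes, and the 77 of 94 below 0 beside 66.4% of them. Of 16 other polymerase, clamp loader and single-strand binding genes 5 fell and 0 rose. Rnaseh2c, a subunit of the nuclease that removes RNA primers and single ribonucleotides, fell from 114 to 64.5 FPKM, Pold4, a small subunit of polymerase δ, from 24.0 to 14.0 FPKM, Rpa2, a subunit of the single-strand binding protein, from 43.1 to 29.0 FPKM, and Rnaseh2a from 17.9 to 11.7 FPKM. Top2a, a topoisomerase common in dividing cells, stood at 31.3 and 30.5 FPKM and did not pass (q = 0.903 in the authors' deposited table). Of 14 other licensing and firing genes 1 fell, Mcmbp, which binds MCM subunits outside the loaded ring, from 35.3 to 23.2 FPKM.

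The list counts given next stand beside 14.7% lower over all tested genes and 17.9% lower among those in the members' range of levels. Of 20 genes of fork protection, checkpoint and repair, 2 fell. These were Timeless, part of the fork protection complex, from 18.0 to 11.7 FPKM, and Dscc1, part of an alternative clamp loader that links replication to cohesion, from 10.3 to 5.50 FPKM. Of 11 other genes of nucleotide supply 3 fell, with Samhd1, which breaks down deoxynucleotides and is strongly expressed in myeloid cells, from 32.7 to 17.4 FPKM, Shmt1, which supplies one-carbon units for thymine, from 21.1 to 13.4 FPKM, and Tk1, thymidine kinase, from 55.4 to 36.8 FPKM. Samhd1 acts against the supply that the list is named for. Of 11 other chromatin assembly genes 3 fell, namely the histone chaperone Asf1b from 51.1 to 28.5 FPKM, the histone acetyltransferase Hat1 from 67.1 to 43.0 FPKM and Supt16, a subunit of the FACT chaperone, from 36.8 to 23.9 FPKM.

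Of the 22 E2F factors and G1/S regulators 3 fell, 2 rose and 17 did not pass, beside 14.7% lower and 23.9% higher over all tested genes, so neither share stands above the background. E2f1, an activator of S-phase genes, fell from 43.7 to 26.2 FPKM (q = 0.00226 in the authors' deposited table). E2f4, which mostly represses these genes in resting cells, fell from 75.9 to 45.7 FPKM. E2f2, another activator, rose from 4.38 to 7.69 FPKM and Tfdp2, a dimer partner of E2F proteins, from 2.56 to 5.57 FPKM. Rbl1, a relative of the retinoblastoma protein, was the third that fell, from 16.4 to 10.8 FPKM. The median log2 fold of the list was −0.18 (0.36 against ribosomal protein genes). In the same groups the summed level of the erythroid markers went from 416 to 2374 FPKM and the macrophage sum went from 13489 to 6453 FPKM, and the part of these in the E2F values was not tested.

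**Figure D4:**
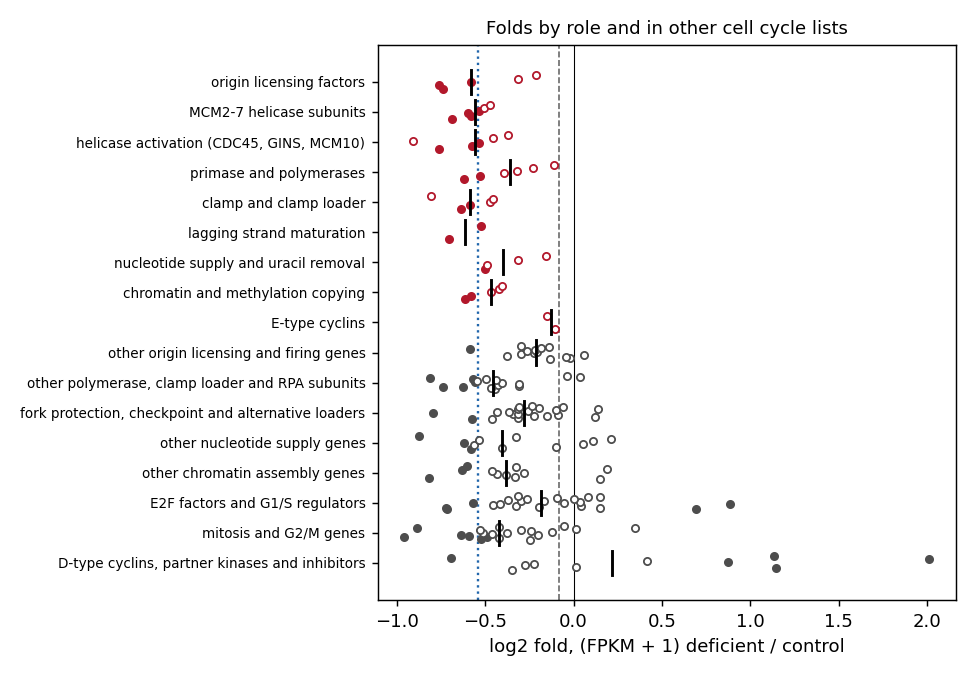
Log2 fold of FPKM + 1 (deficient over control), 1 point per gene, for the 9 role groups of members (red) and 8 other cell cycle lists (dark grey), filled where the authors' q-value was under 0.05, with a black bar at each list's median. The solid line is 0, the dashed line the median of all tested genes (−0.08) and the dotted blue line that of ribosomal protein genes (−0.54). Member medians run from −0.61 for lagging strand maturation to −0.13 for the E-type cyclins, and filled points to the right of 0 occur in the E2F and D-type cyclin lists alone.

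Genes of mitosis and G2/M, the phases after replication, were counted in the same way. Of 20 such genes 6 fell and 0 rose, beside 17.9% lower among tested genes in the members' range of levels, with a median log2 fold of −0.42 against −0.50 for the 41 members, a difference that was not tested, and its median becomes 0.12 against ribosomal protein genes. Ccnb2, a mitotic cyclin, fell from 86.4 to 44.0 FPKM, Birc5, the survivin of the chromosomal passenger complex, from 123 to 66.1 FPKM, Aurkb, the kinase of that complex, from 63.9 to 40.8 FPKM, and Aurka, a spindle kinase, from 42.2 to 27.6 FPKM. Mki67, the usual marker of cycling cells, stood at 18.9 and 15.7 FPKM and did not pass (q = 0.349 in the authors' deposited table). The last list holds the D-type cyclins, their kinases and the inhibitors that act before S phase. Of its 10 tested genes 4 rose and 1 fell, with a median of 0.22. Cdkn1c, the inhibitor p57, rose from 74.3 to 303 FPKM, Ccnd2, a D-type cyclin, from 15.8 to 36.1 FPKM, Cdkn2d, an inhibitor of the cyclin D kinases, from 19.4 to 43.7 FPKM, and Cdkn1a, the inhibitor p21, from 20.3 to 38.0 FPKM. Cdkn2c, another inhibitor of those kinases, fell from 28.5 to 17.2 FPKM. The 4 of 10 that rose stand beside 23.9% of all tested genes and 15.8% of those in the members' range of levels, and 5 of the 10 tested genes of this list encode inhibitors.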

How the data were processed

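RNA from 3 control and 4 Tgfbr2-deficient libraries was amplified with the SMART-Seq v4 kit and tagmented with Nextera XT, per the labels' protocols, and read as single-end reads of 50 bases. Reads were processed with TopHat2, Cufflinks 2.2.1 and Cuffdiff on mm10, per the submitters' processing notes. Which annotation and options were used is not stated in the sources used here. Each gene has 1 deposited FPKM value per group. Per the file headers, the log2 fold is that of deficient over control FPKM (it differed from the recomputed ratio by at most 3.6e-05), the test statistic is the score of Cuffdiff's test, and the deposited p-value and q-value come from that test. The table holds 0 columns for single libraries.

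Genes with a completed test and a level of 1 FPKM or above in either group were counted, and were called at q under 0.05. Medians use log2(FPKM + 1), which understates changes of low genes. Deposited starts count from 0 and were raised by 1. The members, the 23 lists and the rule for named genes (all members, Tgfbr2, Mki67, Top2a and up to 4 called genes of smallest p per pathway or cell cycle list) were chosen with earlier results of these data known. Rbl1, Cdkn2c and the markers Pecam1, Csf1r and Pf4 were named after their values were seen. Of 241 list symbols 240 matched. The 80 ribosomal protein genes were found by symbol and include a few paralogues. Alternatives were other FPKM minima, q-value thresholds, pseudocounts and centrings. Counting was tested on simulated data with planted folds and p-values, which checks the counting code alone and not Cuffdiff's test. Python 3.11.15 was used.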

Additional observations from a re-analysis of the deposited data

How the results depend on the processing

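The count of 19 members lower became 5 at q under 0.01 and 0 when a log2 fold of 1 or larger was also required. The 17 other genes of the pathway that were lower became 5 and 0 under the same settings, and the 2 that were higher became 1 with the fold minimum. These settings keep a part of the calls by construction, and of 170 recomputed counts of single lists 31 moved by over 1.5 times, all 31 to smaller counts and under these settings. With no FPKM minimum, a minimum of 5 FPKM or recomputed q-values, these counts stayed within 1.5 times. The count of members higher was 0 under every setting tried. That outcome was fixed in advance, since every member's deficient value was below its control value. Centring on the ribosomal protein median raises all log2 folds by 0.54. It turned the members' median to 0.035, and the log2 folds of 5 members that fell to 0.0065 for Mcm4, 0.0050 for Gins4, 0.013 for Pold1, 0.018 for Lig1 and 0.037 for Tyms, while 14 of the 19 stayed below 0. Centring on all tested genes adds 0.079 and left all 41 folds below 0. A pseudocount of 0.1 FPKM cannot change the sign of a fold, and with it the members' median was −0.54. Leaving out the 4 members with loci that run past the gene and the 2 with pseudogene copies, chosen after seeing the data, left 17 lower. Leaving out single libraries was not run, since the table holds 1 value per group. No paired analysis was possible because the libraries of each group were combined by the authors. The depth behind low members such as Orc1 and Ccne2 is unknown.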
